A study of Mus musculus with 18 samples.

Results

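De novo lipogenesis was followed at the level of mRNA through 10 genes, which encode 8 enzymes that turn citrate into monounsaturated fatty acids and 2 transcription factors that drive them. The genes were chosen by name, as enzymes of the pathway (Acly, Acaca, Acacb, Fasn, Elovl6, Scd1, Scd2 and Me1) and the regulators Mlxipl and Srebf1. Each has 1 row in the deposited tables, among 52093 gene symbols, and all 10 passed the filter on low counts in every comparison. The data are 18 RNA-seq libraries of wild type male mice that ate a high-fat diet (HFD) over 12 weeks and were, by the study's notes, 16 weeks old. They comprise 6 libraries of adipocytes isolated from inguinal white adipose tissue (iWAT), 6 of adipocytes isolated from epididymal white adipose tissue (eWAT) and 6 of brown adipose tissue (BAT). White adipocytes were freed with collagenase and collected by flotation, whereas BAT was taken as frozen whole tissue, although 1 label field calls it BAT adipocytes. The strain is C57BL/6 in the strain label, C57BL/6J in a protocol and C57BL/6NTac in the study's notes, so the substrain is not settled here. A treatment field of the labels gives regular chow for these samples, against their titles and the design, and they were taken as HFD samples. No untreated group, chow group or knockout was part of these comparisons, so all values describe wild type mice on HFD.

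Fatty acids are made in the cytosol from acetyl-CoA. ATP citrate lyase (Acly) cleaves citrate to acetyl-CoA, the acetyl-CoA carboxylases (Acaca, Acacb) form malonyl-CoA, fatty acid synthase (Fasn) builds palmitate with NADPH that malic enzyme (Me1) helps to supply, Elovl6 lengthens the chain, and the stearoyl-CoA desaturases (Scd1, Scd2) introduce a cis bond. ChREBP (encoded by Mlxipl) responds to glucose metabolites and SREBP-1 (encoded by Srebf1) to insulin and sterols, and both activate genes of this pathway. The pathway is known to be active in brown fat and to be lowered in white fat by fat feeding.

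On the mm9 (NCBIM37) build, the rows of 4 genes are on chromosome 11, namely Fasn (Entrez 14104, chr11:120667254-120685861, minus strand), Acaca (107476, chr11:83943174-84215153, plus), Acly (104112, chr11:100337666-100389314, minus) and Srebf1 (20787, chr11:59995972-60036083, minus). Acacb (100705, chr5:114596544-114706885, plus) and Mlxipl (58805, chr5:135582761-135614254, plus) share chromosome 5. The desaturases are neighbours on chromosome 19, with Scd2 (20250) at chr19:44368166-44381354 on the plus strand and Scd1 (20249) at chr19:44466831-44482199 on the minus strand. Elovl6 (170439) is at chr3:129234922-129341413, plus, and Me1 (17436) at chr9:86474970-86589947, minus. Each row spans the exons and introns of the gene and was summed over its exons, from 6 exons in Scd1, Scd2 and Elovl6 to 60 in Acaca.

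The library kit does not record strand, so reads of rows that overlap on opposite strands cannot be told apart. Overlap touched 4 genes to a degree that could matter, by reads summed over all libraries. The Acly row overlaps the antisense row AK150979, whose reads came to 16.04% of those of Acly. The 3′ end of Scd2 overlaps LOC100502995, with 9.78% as many reads. The Mlxipl row overlaps 18849 bases of the row of Hip1, whose reads came to 143.9% of those of Mlxipl. No Hip1 exon of GENCODE vM1 falls in the Mlxipl row. Hip1 went the other way (15.6 ± 0.806 RPKM in iWAT and 17.1 ± 2.13 in eWAT, SD, n = 6, against 2.74 ± 0.298 in BAT). Mlxipl had 576 to 854 reads per library in iWAT, 114 to 423 in eWAT and 5106 to 10793 in BAT. Any Hip1 reads would thus weigh most on the white Mlxipl levels. How many Hip1 reads entered the Mlxipl counts was not tested. The Srebf1 row holds 7 exons of Rai1, whose reads came to 11.01% of those of Srebf1. Rai1 stayed between 1.4 and 2.41 RPKM in all libraries, and only 58.6% of the Srebf1 row falls in the GENCODE gene. For the other 6 genes, no overlapping row reached 1% of their reads. Scd1 and Scd2 transcripts have 145 stretches of 50 bases in common, which is 3.03% of those of Scd1 and 2.68% of those of Scd2, whereas Acaca and Acacb have 0.

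Promoter sequences show the start sites behind these rows, and those of Fasn and Mlxipl are given because the steps of fatty acid synthesis and of its glucose-responsive control turn on them. They are from RefSeq (GRCm38.p6), reach from 250 bases upstream to the start site, and each was placed on mm9 by its exact match. Capitals mark the E-box CACGTG, which ChREBP and SREBP-1 can bind, and the NF-Y box CCAAT, which reads ATTGG where it lies on the other strand.

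Fasn (chr11:120685862-120686111, minus strand): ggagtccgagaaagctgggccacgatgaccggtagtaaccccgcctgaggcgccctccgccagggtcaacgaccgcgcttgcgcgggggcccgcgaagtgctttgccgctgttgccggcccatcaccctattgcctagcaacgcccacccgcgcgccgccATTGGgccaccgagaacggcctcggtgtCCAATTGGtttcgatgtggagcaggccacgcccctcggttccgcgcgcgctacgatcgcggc
Mlxipl, start site of the row (chr5:135582511-135582760, plus strand): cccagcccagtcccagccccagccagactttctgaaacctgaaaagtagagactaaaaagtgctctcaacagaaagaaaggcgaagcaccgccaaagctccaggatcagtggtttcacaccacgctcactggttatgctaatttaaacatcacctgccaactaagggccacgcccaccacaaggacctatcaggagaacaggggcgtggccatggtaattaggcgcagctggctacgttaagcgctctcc
Mlxipl, upstream start site (chr5:135565510-135565759, plus strand): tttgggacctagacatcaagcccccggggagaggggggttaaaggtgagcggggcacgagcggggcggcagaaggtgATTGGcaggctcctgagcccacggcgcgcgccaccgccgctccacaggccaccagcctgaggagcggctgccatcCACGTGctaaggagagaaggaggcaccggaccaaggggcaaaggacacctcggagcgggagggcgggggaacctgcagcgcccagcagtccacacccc

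The Fasn stretch held 3 NF-Y boxes by count, of which 2 overlap in the run CCAATTGG, and no CACGTG. The upstream start of Mlxipl, 17001 bases before the start of its row and outside it, held the E-box. That start is known as the source of the short ChREBP-beta transcript, whose first exon lies outside the row, so the Mlxipl row cannot separate the transcript forms. The table held 12 promoters of 300 bases for 8 of the genes, and none for Scd1 and Scd2. Searched on both strands, CACGTG was in 1 of the 12 (7.15% of 32851 promoters of the table), the sterol response element core CACCCCAC in 0 (2.87%), CCAAT in 7 (37.4%), the Sp1 box GGGCGG in 5 (35.7%) and the TATA box TATAAA in 1, of Acacb (13.6%). A match is a string of letters and not a measured binding site.

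Libraries held 24655056 to 42518483 reads on gene rows, and the smallest member count was 114 reads (Mlxipl in eWAT). As a share of the library total behind RPKM, reads of the 10 genes were 2.02 ± 0.475% in iWAT, 0.771 ± 0.359% in eWAT and 3.43 ± 0.517% in BAT (mean ± SD, n = 6). That total was above the reads on gene rows in each white library and below them in each BAT library. All 5 adipocyte markers (Adipoq, Plin1, Lep, Cidec, Fabp4) were detected in every library, and their summed level was 11221 to 15701 RPKM in iWAT, 2511 to 7806 in eWAT and 5402 to 6631 in BAT. The 6 macrophage markers summed to 459 to 892 RPKM in iWAT, 2601 to 4159 in eWAT and 24.5 to 48.4 in BAT. The 5 brown adipocyte markers, Ucp1 among them, summed to 12.0 to 17.4, 3.46 to 5.85 and 2218 to 3022 RPKM. Endothelial markers summed to 107 to 307, 36.5 to 78.1 and 75.7 to 110 RPKM. Those of fibroblasts or progenitors summed to 463 to 626, 91.3 to 218 and 26.9 to 43.2. Of these, Dpt alone had a mean of 476, 85.9 and 16.3 RPKM, and the list was divided. For iWAT over BAT, the edgeR log2 was 4.27 for Dpt, 2.22 for Col1a1, -0.89 for Pdgfra and -1.94 for Pi16, and Dcn did not pass. Muscle markers reached 109 RPKM in BAT against at most 23.1 in iWAT and 7.1 in eWAT. In RNA of mixed cells, fewer cells of a type and less RNA per cell cannot be told apart. BAT also differed from the white depots in its preparation and sequencing lanes (3 and 4 against 1 and 2), so tissue, preparation and lane cannot be told apart in comparisons with BAT. The part of these cell types in the differences between tissues was not tested.

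Per transcript length, the genes ranked differently in white adipocytes and BAT. RPKM, a read count divided by transcript length and by library total, allows levels of different genes to be set side by side. Scd1 was the most abundant of the 10 in every tissue, and its lowest library lay above the highest library of Fasn, the next gene in each. In iWAT and eWAT, the order went on with Fasn, Scd2 and Me1, whose ranges overlapped from each gene to the next, and Mlxipl, Elovl6 and Acacb had the lowest means, 1.69 to 4.46 RPKM. Acacb was last in both depots, while Mlxipl was above Elovl6 in iWAT and below it in eWAT. In BAT, the order was Scd1, Fasn, Acly, Acaca, Me1, Elovl6, Acacb, Scd2, Mlxipl and Srebf1. Neighbours from Acly to Mlxipl overlapped there, and Srebf1 lay below Mlxipl without overlap. Scd1 made up 85.8 ± 1.44% of the summed RPKM of the 10 genes in iWAT, 78.7 ± 3.43% in eWAT and 63.9 ± 7.07% in BAT (mean ± SD, n = 6). The share of Fasn was 4.69 ± 0.439% in iWAT, 6.45 ± 0.476% in eWAT and 21.5 ± 4.12% in BAT, given without a test.

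**Figure D1:**
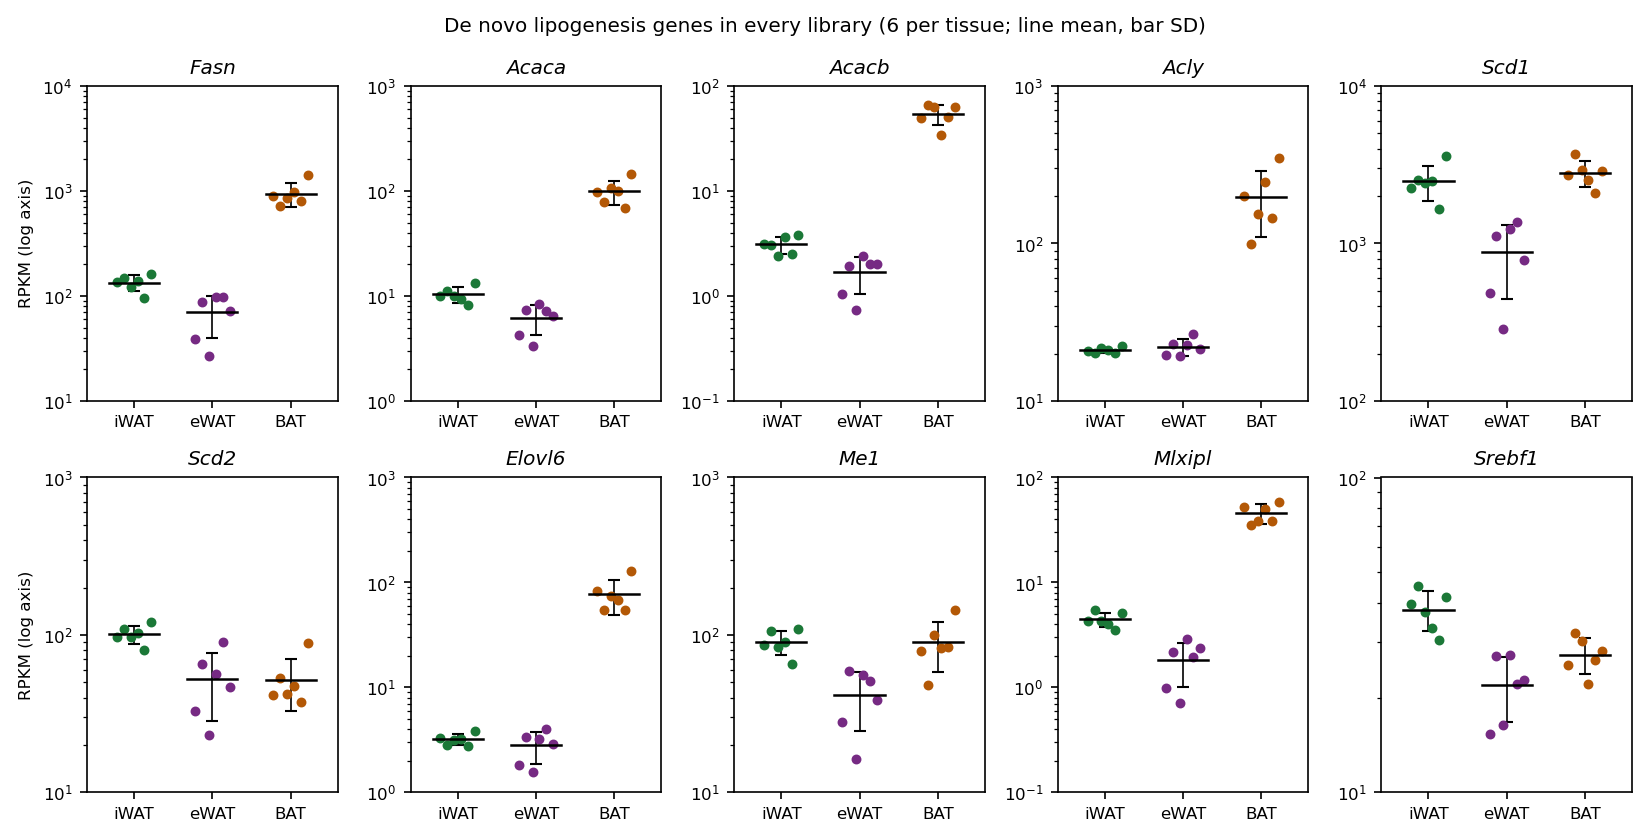
RPKM (log axis) of the 10 genes in each of 18 libraries, with 6 points per tissue, a line at the mean and a bar of 1 SD. BAT lies above both white depots for Fasn, Acaca, Acacb, Acly, Elovl6 and Mlxipl (mean 946 RPKM for Fasn, against 134 and 70.2), while BAT overlaps with at least 1 white depot for Scd1, Scd2, Me1 and Srebf1.

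The steps from citrate to palmitate were far higher in BAT than in adipocytes of either white depot. Fasn had 96.2, 137 and 162 RPKM in iWAT (lowest, median and highest library), 26.6, 79.3 and 98.5 in eWAT, and 713, 882 and 1404 in BAT. All BAT libraries were above all white libraries, while the white depots overlapped by a narrow margin. By edgeR on TMM-scaled counts, Fasn was 10.8-fold higher in BAT than in iWAT (log2 -3.43, SE 0.21, adjusted p = 6.87e-10) and 20.5-fold higher than in eWAT (log2 -4.36, SE 0.34, adjusted p = 1.12e-08). Log2 differences are given as the first tissue over the second, so values below 0 are higher in BAT.

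Acaca, the cytosolic carboxylase that feeds synthesis, had 8.28, 9.93 and 13.4 RPKM in iWAT, 3.37, 6.84 and 8.34 in eWAT, and 69.3, 98.2 and 144 in BAT. Its BAT libraries stood clear of the others, at a log2 of -3.88 (SE 0.21) for iWAT over BAT and -4.61 (SE 0.27) for eWAT over BAT. Acacb, the carboxylase at the mitochondrial surface whose malonyl-CoA restrains fatty acid oxidation, was scarce in white adipocytes. It had 2.42, 3.11 and 3.84 RPKM in iWAT and 0.736, 1.97 and 2.40 in eWAT. In BAT, its level was 34.3, 56.7 and 65.4 RPKM. Acacb thus showed 26.5-fold (log2 -4.73, SE 0.17, adjusted p = 2.88e-12) and 48.1-fold (log2 -5.59, SE 0.29, adjusted p = 6.84e-11) higher counts in BAT than in iWAT and eWAT by edgeR.

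Acly was the least variable enzyme in white adipocytes. Its level was 20.2, 21.0 and 22.2 RPKM in iWAT, with a coefficient of variation of 3.78%, and 19.3, 21.9 and 26.8 in eWAT. The BAT libraries spread from 98.6 to 346 RPKM with a median of 177, a coefficient of variation of 44.6%. The log2 difference was -3.87 (SE 0.27, adjusted p = 3.73e-09) for iWAT over BAT and -3.78 (SE 0.28, adjusted p = 6.25e-09) for eWAT over BAT by edgeR. The antisense row AK150979 was likewise higher in BAT, at 213 ± 90.4 RPKM against 31.6 ± 2.61 in iWAT and 34.4 ± 4.58 in eWAT (SD, n = 6), and its reads could not be separated from those of Acly.

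Elovl6, the elongase of palmitate, had the largest difference of the 10 between iWAT and BAT. It had 2.79, 3.22 and 3.84 RPKM in iWAT, 1.57, 3.05 and 3.98 in eWAT, and 54.1, 71.2 and 129 in BAT. The white depots overlapped almost fully, and BAT was 36.7-fold higher than iWAT (log2 -5.20, SE 0.23, adjusted p = 1.75e-11) and 41.5-fold higher than eWAT (log2 -5.37, SE 0.30, adjusted p = 1.91e-10). Of all genes tested, 1.49% differed as much as Elovl6 between iWAT and BAT. For Fasn that share was 5.37%, for Acaca 3.85% and for Acacb 2.05%.

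The desaturases did not follow this order. Scd1 had 1660, 2457 and 3599 RPKM in iWAT, 288, 950 and 1368 in eWAT, and 2091, 2815 and 3686 in BAT. Libraries of iWAT and BAT overlapped, and those of eWAT lay below both. By edgeR, Scd1 was 1.71-fold higher in BAT than in iWAT (log2 -0.77, SE 0.20, adjusted p = 0.00217) and 4.81-fold higher than in eWAT (log2 -2.27, SE 0.33, adjusted p = 1.13e-05). Scd2, which is best known from brain, had 80.3, 99.7 and 121 RPKM in iWAT, 23.0, 51.6 and 90.8 in eWAT, and 37.3, 44.9 and 88.5 in BAT. It did not pass the test between BAT and iWAT (log2 0.36, SE 0.19, adjusted p = 0.102) or eWAT (log2 -0.57, SE 0.29, adjusted p = 0.0821). The BAT library numbered 18 held the highest Scd2 value of that tissue, and without it the difference between iWAT and BAT passed (log2 0.57, adjusted p = 0.00208). Without eWAT number 5, which had the highest Scd2 of eWAT, the difference between eWAT and BAT passed as well (log2 -0.79, adjusted p = 0.0152).

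Me1, which yields NADPH from malate, had 65.3, 88.7 and 108 RPKM in iWAT, 16.3, 44.9 and 58.8 in eWAT, and 47.8, 83.1 and 144 in BAT. The range of iWAT fell inside that of BAT. The edgeR log2 of iWAT over BAT was -0.60 (SE 0.22, adjusted p = 0.0211), and it no longer passed without BAT number 18 (log2 -0.43, adjusted p = 0.0623). Between eWAT and BAT, Me1 passed at a log2 of -1.72 (SE 0.31, adjusted p = 9.11e-05).

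The regulators parted in the same way. Mlxipl had 3.55, 4.32 and 5.48 RPKM in iWAT, 0.714, 2.06 and 2.86 in eWAT, and 35.1, 44.7 and 59.0 in BAT, so that no tissue overlapped with another. BAT was 15.7-fold above iWAT (log2 -3.97, SE 0.18, adjusted p = 2.78e-11) and 37.9-fold above eWAT (log2 -5.24, SE 0.32, adjusted p = 6.54e-10). Srebf1 had 30.6, 38.5 and 45.3 RPKM in iWAT, 15.4, 22.4 and 27.4 in eWAT, and 22.1, 27.1 and 32.2 in BAT. By RPKM its highest libraries were those of iWAT, whereas on the TMM scale iWAT and BAT did not pass the test (log2 -0.13, SE 0.11, adjusted p = 0.321) and BAT was above eWAT (log2 -0.91, SE 0.14, adjusted p = 2.20e-05).

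**Figure D2:**
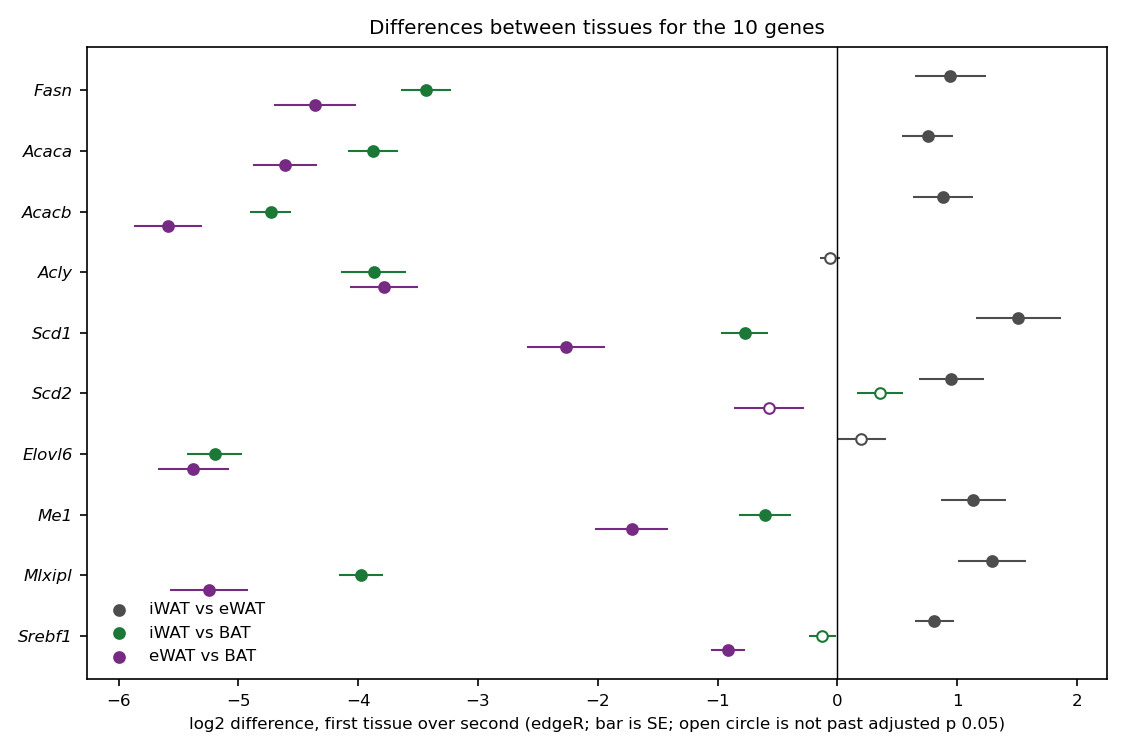
Log2 difference of the first over the second tissue (edgeR, bars are SE, 6 against 6 libraries), with filled circles past an adjusted p of 0.05 and open circles not. Values reach -5.20 for iWAT over BAT and -5.59 for eWAT over BAT, and 8 of 10 genes are past the threshold on the iWAT side of iWAT over eWAT.

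Of the 10 genes, 8 passed between iWAT and BAT, all higher in BAT, where 75.3% of all genes tested passed (38.1% higher in iWAT and 37.2% higher in BAT). Between eWAT and BAT, 9 passed, all higher in BAT, where 82.5% of all genes passed (41.1% higher in eWAT and 41.4% in BAT). Ranges of RPKM did not overlap for 6 genes between iWAT and BAT and for 7 between eWAT and BAT, against 65.3% and 68.4% of all genes. These ranges are not TMM-scaled, unlike the tests. On TMM-scaled RPKM, Me1 (12.4 to 47.0 in eWAT, 66.0 to 217 in BAT) did not overlap between eWAT and BAT either. The same held for Srebf1 (11.9 to 22.4 in eWAT, 37.0 to 48.0 in BAT). The shares that passed were thus close to those of all genes. The median log2 of the 10 was -3.65 for iWAT over BAT and -4.07 for eWAT over BAT, against 0.01 and -0.02 over all genes tested. TMM scaling holds that median of all genes near 0. With signs left out, the median log2 was 3.65 and 4.07 for the 10, against 0.69 and 0.97 over all genes tested. Every tissue enters a pair of comparisons, so these are not independent of one another.

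Scaling mattered for the small differences from BAT. A scaling by total count moved the median log2 of all genes to 0.87 for iWAT over BAT and to 0.89 for eWAT over BAT, and the 6 large differences (Fasn, Acaca, Acacb, Acly, Elovl6 and Mlxipl) kept their direction and passed under every alternative. Under that scaling, iWAT over BAT turned to 0.07 for Scd1 and 0.26 for Me1, which no longer passed, and to 0.72 for Srebf1, which passed (adjusted p = 3.03e-05). Scd2 passed on the iWAT side (log2 1.21, adjusted p = 9.41e-06), and eWAT over BAT was 0.34 for Scd2 and -0.004 for Srebf1, neither of which passed. The directions of Scd1, Me1 and Srebf1 between iWAT and BAT, and whether Scd2 passed, therefore depended on the scale.

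Between the white depots, 8 of the 10 genes were higher in iWAT adipocytes and none was higher in eWAT. Scd1 was 2.85-fold higher in iWAT (log2 1.51, SE 0.35, adjusted p = 0.00193), Mlxipl 2.45-fold (log2 1.29, SE 0.28, adjusted p = 0.00123) and Me1 2.20-fold (log2 1.14, SE 0.27, adjusted p = 0.0023). Scd2, Fasn, Acacb, Srebf1 and Acaca differed by a log2 of 0.95, 0.94, 0.88, 0.81 and 0.75. Acly (log2 -0.06, SE 0.09, adjusted p = 0.543) and Elovl6 (log2 0.20, SE 0.20, adjusted p = 0.398) did not pass by edgeR. Over all genes tested, 68.6% passed, 34.1% higher in iWAT and 34.5% in eWAT, with a median log2 of 0.00 against 0.91 for the 10 genes. With signs left out, the median log2 was 0.47 over all genes tested and 0.91 for the 10. Libraries did not overlap for 5 genes (Acacb, Scd1, Me1, Mlxipl and Srebf1), against 44% of all genes.

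Adipocyte and macrophage markers moved with this difference. The summed adipocyte markers of iWAT and eWAT did not overlap, and eWAT numbers 1 and 3, with 3433 and 2511 RPKM of adipocyte markers and 4159 and 4100 of macrophage markers, were the lowest eWAT libraries for all 10 genes. Left out together, a choice made after their values were seen, they left the same number of genes past the threshold, 8, with log2 values of 0.59 for Fasn, 1.14 for Scd1 and 0.93 for Mlxipl. Elovl6 then stood at -0.08 (adjusted p = 0.579). The count of 8 is to be read against the 68.6% of all genes that passed with all white libraries.

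Sequencing lane was mixed between the white depots. In lane 2, with 4 iWAT and 2 eWAT libraries, the log2 values were 1.35 for Fasn, 2.07 for Scd1 and 1.49 for Mlxipl, and 8 genes passed. In lane 1, with 2 iWAT and 4 eWAT libraries, they were 0.74, 1.23 and 1.18, and 1 gene, Srebf1, passed (log2 0.74, adjusted p = 0.0344). The 8 genes had the same direction in both lanes and passed with lane as a covariate. With all white libraries and no covariate, 68.6% of all genes tested passed, so these counts alone do not set the genes apart from others. That share is not of a single lane, and the counts of each lane have no share of all genes in that lane beside them here.

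Divided by Plin1, the perilipin that coats adipocyte lipid droplets, in the same library, the order of the white depots was inverted. The ratio to Plin1 was 0.377 ± 0.028 for Fasn in iWAT and 0.607 ± 0.104 in eWAT (mean ± SD, n = 6), 0.0291 and 0.0566 for Acaca, and 0.0602 and 0.226 for Acly. All 10 genes had a lower mean ratio in iWAT, by a log2 of -0.09 for Scd1 to -1.81 for Acly, and 9 of them, all but Scd1, did not overlap between the depots. Plin1 itself was 355 ± 52.8 RPKM in iWAT, 116 ± 49.96 in eWAT and 196 ± 22.7 in BAT. Per Plin1, BAT remained above both white depots without overlap for Fasn (4.91 ± 1.45), Acaca, Acacb, Acly, Elovl6 and Mlxipl. Of the 5 adipocyte markers, Plin1 had the largest edgeR log2 for iWAT over eWAT (1.63). That of Scd1 (1.51) lay below those of Plin1 and Adipoq (1.55), but above those of Fabp4 (1.38), Lep (1.33) and Cidec. The inverted order of all 10 genes therefore holds for Plin1 and could differ with another marker. Ratios to the other markers were not computed. The ratios to Plin1 carry no test, and the part of adipocyte content in the differences was not tested.

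**Figure D3:**
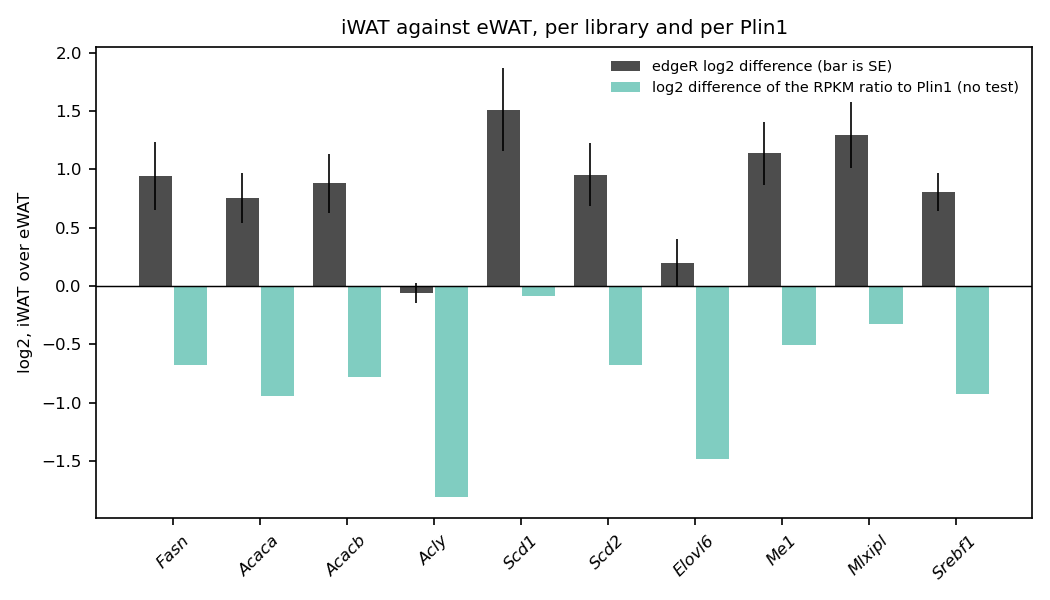
Log2 difference of iWAT over eWAT for the 10 genes, from edgeR counts (dark bars, SE) and from the ratio of RPKM to Plin1 RPKM in each library (light bars, no test), with 6 libraries per depot. Dark bars are at 0.75 to 1.51 for 8 genes, and light bars are all below 0, from -0.09 for Scd1 to -1.81 for Acly.

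Ratios of genes within a library do not depend on how libraries are scaled. Scd1 stood at 24.4 ± 3.08 times the RPKM of Scd2 in iWAT, 16.3 ± 3.21 in eWAT and 57.7 ± 13.9 in BAT (mean ± SD, n = 6). BAT lay above both white depots without overlap, and the lowest BAT ratio, 32.8, was that of number 18. All 3 differences passed an exact permutation test over libraries (two-sided, adjusted over 9 ratio tests, p = 0.00487 for iWAT against eWAT and 0.00325 for each against BAT). The unadjusted exact permutation p of 0.00216 behind the latter is the smallest that 6 against 6 libraries allow.

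The ratio of Acaca to Acacb was 3.38 ± 0.509 in iWAT and 3.78 ± 0.480 in eWAT, and the difference did not pass the exact permutation test (adjusted p = 0.193). In BAT it was 1.90 ± 0.626, below both (adjusted p = 0.00487 against iWAT and 0.00325 against eWAT, exact permutation test). Levels of the mitochondrial-surface carboxylase were thus closer to those of the cytosolic form in BAT, and the ranges of BAT (1.195 to 2.88) and iWAT (2.59 to 4.12) overlapped.

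The ratio of Mlxipl to Srebf1 separated all 3 tissues. It was 0.117 ± 0.00462 in iWAT, with a range of 0.109 to 0.122, and 0.0807 ± 0.0235 in eWAT, with a range of 0.0437 to 0.105. In BAT it was 1.72 ± 0.5002, from 1.09 to 2.29, so that Mlxipl exceeded Srebf1 in each BAT library and in no white library. The 1.52-fold difference between white depots, the 14.1-fold difference between iWAT and BAT and the 21.4-fold difference between eWAT and BAT all had an adjusted p of 0.00325 by exact permutation. Part of the Srebf1 row holds Rai1 exons, which bears on the level of the ratio. Hip1 reads could bear on it too, most in the white depots, and this was not tested.

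**Figure D4:**
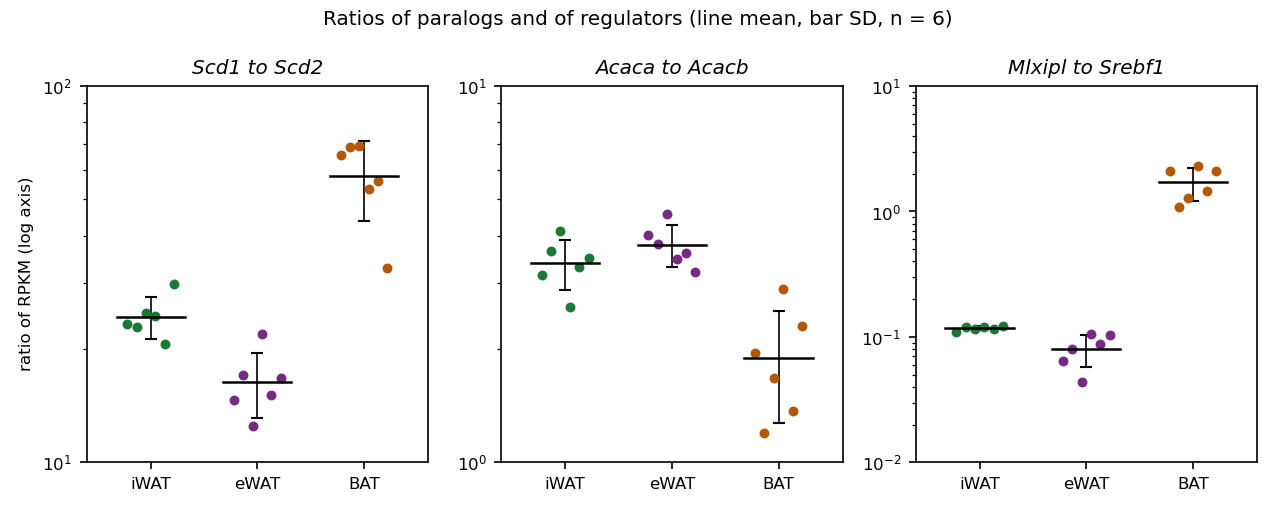
Ratio of RPKM (log axis) of Scd1 to Scd2, Acaca to Acacb and Mlxipl to Srebf1 in each library, with 6 points per tissue, a line at the mean and a bar of 1 SD. BAT has the highest Scd1 to Scd2 ratio (mean 57.7) and the highest Mlxipl to Srebf1 ratio (1.72), and the lowest Acaca to Acacb ratio (1.90).

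Within tissues, libraries varied most in eWAT for most of the genes, where coefficients of variation were 49.3% for Scd1, 43.9% for Fasn and 45.0% for Mlxipl, against 25.2%, 17.1% and 15.9% in iWAT. The median Pearson r of the 8 enzymes with Mlxipl was 0.79 in iWAT and 0.91 in eWAT, and with Srebf1 0.72 and 0.87. With the adipocyte marker Adipoq, it was as high, at 0.87 and 0.97, and with the macrophage marker Cd68 it was -0.56 and -0.88. In BAT the medians were 0.71 with Mlxipl, -0.06 with Srebf1, -0.68 with Adipoq and 0.11 with Cd68. Without the 2 libraries farthest from the median of the partner gene, the medians in eWAT were -0.07 with Mlxipl, 0.22 with Srebf1, 0.55 with Adipoq and -0.12 with Cd68, so covariation with Mlxipl, Srebf1 and Cd68 in eWAT rested largely on those libraries. In iWAT they were then 0.82, 0.51, 0.71 and -0.65, and in BAT 0.53, 0.35, -0.30 and 0.36.

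Of 96 such relations (6 libraries each), 9 passed by exact permutation of Pearson's r after adjustment, each with an adjusted p of 0.0444, and 0 by Spearman's rho. With TMM-scaled RPKM, 0 passed. In BAT, Fasn went with Mlxipl (r = 0.87, rho = 0.94, exact permutation p = 0.00417 and 0.0167), with r = 0.79 without the 2 libraries farthest from the median. Acacb went with Srebf1 there (r = 0.95, rho = 1, exact permutation p = 0.00139 and 0.00278). In eWAT, Acaca went with Adipoq (r = 0.99, rho = 1, exact permutation p = 0.00139 and 0.00278), Acacb with Mlxipl (r = 0.99), Me1 with Adipoq (r = 0.97) and Me1 against Cd68 (r = -0.91). In iWAT, Fasn, Scd2 and Me1 went with Adipoq (r = 0.97, 0.97 and 0.99). Without the 2 farthest libraries, these 9 had an r of 0.79 to 0.99 in size, with their signs kept. For Fasn and Mlxipl in eWAT, r was 0.95 (rho = 0.60, exact permutation p = 0.0194 and 0.242) and 0.02 without the 2 farthest libraries, so that relation rested on them.

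**Figure D5:**
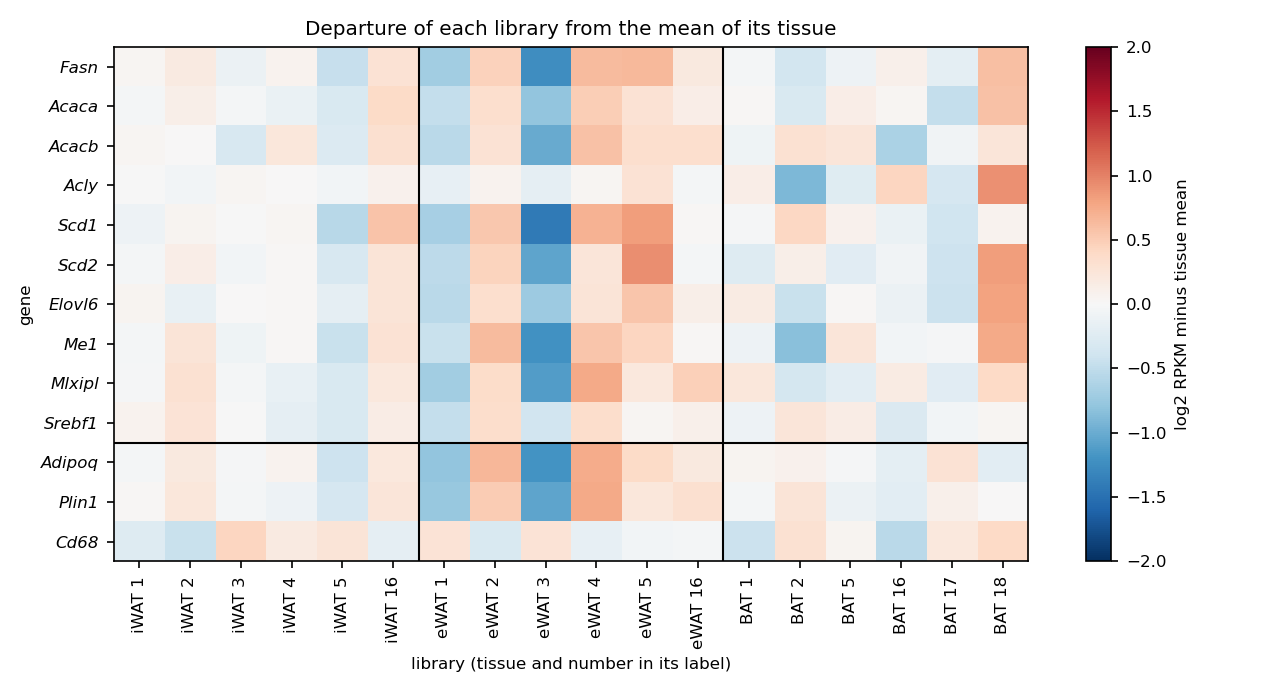
Log2 RPKM of each library minus the mean of its tissue, for the 10 genes and for Adipoq, Plin1 and Cd68 below the line (colour scale from -2 to 2). Numbers 1 and 3 of eWAT are below their tissue mean in all 10 genes and in Adipoq and Plin1, and number 18 of BAT is above it in all 10 genes.

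Among 11414 genes with at least 1 mean RPKM in each tissue, those most like Fasn over the 18 libraries, after each tissue mean was taken off the log2 RPKM, were Thnsl2 (r = 0.98), Sc5d (0.98), LOC100505173 (0.96), 4930471I20Rik (0.96) and Deptor (0.96). Sc5d encodes a desaturase of cholesterol synthesis and Deptor an inhibitor of mTOR. Of the 9 other members, 5 ranked within the first 100, with Acaca at rank 17, Mlxipl at 24, Me1 at 25, Scd2 at 74 and Elovl6 at 82. Scd1 was at 158, Acacb at 466, Srebf1 at 873 and Acly at 1381. Adipoq ranked 290 and Plin1 246 by the same measure, and the part of adipocyte RNA in this likeness was not tested. For Scd1 the likeness to Fasn was 0.90 in iWAT and 0.99 in eWAT, but -0.11 in BAT, and for Acly it was 0.49, 0.84 and 0.95. In BAT it was -0.06 for Acacb, -0.29 for Srebf1, -0.75 for Adipoq and -0.43 for Plin1, while the other members had 0.76 to 0.92. The genes most like Fasn had 0.75 to 0.97 in iWAT, 0.985 to 0.998 in eWAT and 0.91 to 0.99 in BAT. Deviations of Fasn spread most in eWAT (-1.24 to 0.64), so eWAT weighed most in r over the 18 libraries.

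Genes that supply the pathway with carbon followed the same order. Of 11, 10 passed as higher in BAT than in iWAT, and the same number than in eWAT, with Slc2a1 as the exception (log2 1.65 and 3.07). The insulin-responsive glucose transporter Slc2a4 had 18.1 ± 3.64 RPKM in iWAT, 4.81 ± 2.32 in eWAT and 54.1 ± 9.46 in BAT (mean ± SD, n = 6), with a log2 of 1.92 (SE 0.31) for iWAT over eWAT. The mitochondrial pyruvate carrier subunit Brp44l (Mpc1) had 143 ± 23.6, 85.95 ± 17.9 and 565 ± 96.2 RPKM. The fructose transporter Slc2a5 had 372 to 1914 reads per library in BAT, 0 to 2 in iWAT and 0 to 4 in eWAT. Between white depots, 8 of the 10 tested were higher in iWAT and 2 in eWAT. By total count scaling, 9 of 11 were higher in BAT than in iWAT. For this list and the next ones, counts are to be read against all genes tested. Of those, 37.2% were higher in BAT than in iWAT and 38.1% lower. Between eWAT and BAT, 41.4% were higher in BAT and 41.1% in eWAT. Between white depots, 34.1% were higher in iWAT and 34.5% in eWAT. Total count scaling moved the median log2 of all genes to 0.87 for iWAT over BAT and 0.89 for eWAT over BAT.

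Of 11 genes of NADPH supply other than Me1, 7 were higher in BAT than in iWAT, 2 in iWAT, and 2 did not pass, and the split depended on scale (4 in BAT and 5 in iWAT by total count). Taldo1, transaldolase of the pentose phosphate pathway, was the most abundant, at 87.7 ± 9.44, 96.1 ± 17.9 and 167 ± 24.0 RPKM in iWAT, eWAT and BAT. Me3, a mitochondrial malic enzyme, was lower overall but differed most, with 0.04, 0.02 and 1.57 mean RPKM. Its log2 was -5.88 (SE 0.13) for iWAT over BAT. It rested on few reads in white libraries, 10 to 22 in iWAT and 7 to 15 in eWAT, against 422 to 1042 in BAT. Between white depots, 5 of 11 were higher in iWAT and 3 in eWAT, and by total count 4 and 5. Between eWAT and BAT, 6 were higher in BAT and 1 in eWAT, and by total count 4 and 5.

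Other elongases and desaturases were divided. Of the 14 tested, 4 were higher in iWAT and 4 in BAT, and by total count 10 and 2. Elovl3, the cold-induced elongase of brown fat, had 0.50 ± 0.20, 0.24 ± 0.10 and 25.3 ± 9.31 RPKM in iWAT, eWAT and BAT. Its log2 was -6.26 (SE 0.31) for iWAT over BAT. Its reads per library were 15 to 51 in iWAT, 7 to 26 in eWAT and 948 to 2651 in BAT. Scd3, a close neighbour of Scd1 whose reads could be shared with it, had 133 ± 35.5, 44.1 ± 21.6 and 97.9 ± 44.1 RPKM. Between eWAT and BAT, 7 of 15 were higher in BAT and 5 in eWAT, and by total count 3 and 9. Between white depots, 7 of 14 were higher in iWAT and 4 in eWAT.

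Partners of the regulators went both ways. Of 20, 9 passed as higher in iWAT than in BAT and 7 as lower, with a median log2 of 0.00, and by total count 18 and 2. Between eWAT and BAT, 8 were higher in eWAT and 5 in BAT, and by total count 18 and 2. Between white depots, 8 were higher in iWAT and 6 in eWAT, and by total count 6 and 9. Thrsp, a lipogenic regulator also called Spot 14, had 47.6 ± 11.3, 22.1 ± 10.2 and 544 ± 182 RPKM in iWAT, eWAT and BAT and a log2 of -4.13 (SE 0.27) for iWAT over BAT. Mlx, the partner of ChREBP, had 5.17 ± 0.246, 5.62 ± 0.295 and 4.57 ± 0.718 RPKM. Nfya, a subunit of the factor that binds CCAAT, was higher in eWAT than in iWAT (log2 -1.22, SE 0.10) at 8.77 ± 1.15 against 3.74 ± 0.63 RPKM.

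Genes that set the level or use of malonyl-CoA outside the carboxylases also leaned to BAT, with 7 of 8 higher there than in iWAT and 1, Prkab2, lower. By total count the split was 3 and 3. The same counts, 7 and 1, held for eWAT against BAT, where the split by total count was 4 and 2, and 6 of 8 were higher in iWAT than in eWAT. Mlycd, malonyl-CoA decarboxylase, had 7.12 ± 0.87, 4.83 ± 0.61 and 22.2 ± 4.72 RPKM in iWAT, eWAT and BAT (log2 -2.23, SE 0.12 for iWAT over BAT). The AMPK subunit Prkaa2 had 1.85, 0.70 and 2.89 mean RPKM, and the AMPK kinase Stk11 had 12.7, 10.9 and 15.5. All 5 genes of mitochondrial fatty acid synthesis passed as highest in BAT and lowest in eWAT, among them Mecr at 9.69, 5.11 and 31.9 mean RPKM and Ndufab1 at 7.12, 3.85 and 26.2. By total count, 4 of these 5 were higher in BAT than in iWAT and 1 did not pass, while all 5 stayed higher in BAT than in eWAT.

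ChREBP and SREBP-1 targets outside fatty acid synthesis were mixed. Of 6 tested, 4 were higher in BAT than in iWAT and 1 lower, 4 were higher in BAT than in eWAT and 2 lower, and 3 were higher in iWAT than in eWAT and 1 lower. By total count, 2 were higher in BAT than in iWAT and 3 lower. Gpd1, which makes the glycerol-3-phosphate for triglycerides, had 337 ± 57.8, 139 ± 53.3 and 1673 ± 171 RPKM in iWAT, eWAT and BAT, with a log2 of -2.92 (SE 0.16) for iWAT over BAT and 1.29 (SE 0.26) for iWAT over eWAT. Pnpla3, a lipase-like protein of lipid droplets, had 24.9 ± 4.10, 7.25 ± 3.51 and 51.8 ± 14.1 RPKM, with a log2 of 1.79 (SE 0.33) for iWAT over eWAT.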

How the data were processed

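Adipocytes of iWAT and eWAT and whole BAT were profiled by RNA-seq (NEBNext Ultra kit, HiSeq). Per the submitters' processing notes, tools included cutadapt 1.16 and HISAT2 2.1.0 with mm9; the counting program and annotation are not given in the sources used here. The authors deposited, for 53445 rows, whole-number read counts per transcript row and the RPKM computed from them. Where a symbol had several rows (1220 symbols), the row with the highest mean RPKM was used. Tissues were compared on the deposited counts with edgeR 4.0.16 in R 4.3.3 (TMM, quasi-likelihood, a filter on mean counts under 10, two-sided, Benjamini-Hochberg over all genes, adjusted p of 0.05), each comparison on its own 12 libraries. SE was derived from the F statistic. Pseudocounts were 0.1 or 1. The test was tried on simulated data. Alternatives were DESeq2 1.42.0, limma 3.58.1 on RPKM, total count scaling, other filters, the lane, a replicate block and leaving out libraries. Members, gene lists and named genes (the most abundant and the most changed of each list, and the 5 most like Fasn) were chosen with earlier results of these data known. Libraries were grouped by tissue from their labels. By the study's notes each group held 6 samples, and p-values measure the spread between these libraries. Replicates differed beyond counting noise.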

Additional observations from a re-analysis of the deposited data

Results flagged for a closer look

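Of 30 groups of 6 values (10 genes in 3 tissues), 1 had a library far from the others. Scd2 was at 88.5 RPKM in BAT number 18, against 37.3 to 53.5 RPKM in the other 5 BAT libraries. About 1.5 such groups would be flagged by chance. That library was also the highest of BAT for Fasn, Acaca, Acly, Elovl6, Me1 and Mlxipl.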

How the results depend on the processing

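Of 680 values of single genes under alternatives, 640 kept their direction and side of the threshold. Total count scaling reversed Scd1 (0.0744), Me1 (0.262) and Srebf1 (0.721) for iWAT over BAT and Scd2 (0.341) for eWAT over BAT, a shift of all genes. Limma was run on RPKM, which is divided by library total and not scaled by TMM. With pseudocounts of 0.1 and 1, Me1 (0.0666 and 0.0653) and Srebf1 (0.471 and 0.458) were reversed by limma for iWAT over BAT. Scd1 no longer passed. The part of the scale in these changes was not tested. Acly for iWAT over eWAT ranged from -0.10 to 0.0041 when single libraries were left out, with the positive value without eWAT number 5, and was 0.0793 in lane 2. Elovl6 turned to -0.0762 without eWAT numbers 1 and 3. In lane 1 alone, 1 of the 10 genes and 7300 genes in all passed between white depots, with 6 libraries against 12. With a log2 difference of at least 1 added, 3 of the 10 passed between white depots, and genes passing in all fell to 4892 (iWAT against eWAT), 7363 (iWAT against BAT) and 9830 (eWAT against BAT), from 13454, 14864 and 16561. The Acaca to Acacb ratio between white depots turned from -0.17 to 0.0651 on log2 with RPKM + 1, and TMM-scaled RPKM left 0 of 9 correlations; the cause was not tested.

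Whether same-numbered libraries came from 1 mouse is not given in the sources used here. Their deviations from tissue means had a mean r of -0.005, -0.014 and 0.014 (from -0.24 to 0.42), and they were not treated as pairs. With the number as a replicate block, 8, 8 and 9 genes passed, as without it, though Scd2 passed (0.49, adjusted p = 0.0166) and Me1 did not (-0.38, adjusted p = 0.274) for iWAT over BAT. With all 18 libraries in 1 fit, Scd2 passed for eWAT over BAT (-0.60, adjusted p = 0.0457) and Me1 did not for iWAT over BAT (adjusted p = 0.0506).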
